A study of Homo sapiens with 3 samples.

Results

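The 8 genes described here, *PABPC1*, *PABPC4*, *PCNA*, *UPF1*, *NCL*, *TOP1*, *PARP1* and *IPO7*, encode host proteins that have been reported in L1 ribonucleoprotein complexes or are needed for L1 insertion. They were taken by name, by a rule that uses no measured value, though with earlier results of these data known. All 8 were found among the 23284 gene names in each library. RNA-seq was conducted on 293T, an established line from human embryonic kidney, after transient expression of dCas9-VP64, in which a cutting-dead Cas9 is joined to a transcriptional activator. All conditions received dCas9-VP64 and differed in the guide: a mock sgRNA from the empty guide vector, sgL1ASP #1 or sgL1ASP #3, both directed at the L1 antisense promoter (ASP). There was 1 library per condition, so differences have no replicate check and no p-value is given; the share of transfected cells and the day of RNA collection are not given in the sources used here. Values are FPKM, reads relative to exon length and to the mapped reads of the library, so levels are compared between genes per length.

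L1 RNA leaves the nucleus, is translated into ORF1p and ORF2p, and is bound by these proteins together with host proteins. The particle re-enters the nucleus, where ORF2p nicks the target DNA and copies the L1 RNA into the break, so the particle meets proteins of messenger RNA turnover, nuclear import, DNA replication and DNA repair. PABPC1 and PABPC4 bind poly(A) tails, UPF1 is the RNA helicase of nonsense-mediated decay, and NCL (nucleolin) is an abundant RNA-binding protein of the nucleolus. IPO7 carries cargo into the nucleus, PCNA is the sliding clamp that holds DNA polymerases on their template, TOP1 relaxes supercoiled DNA through a nick, and PARP1 detects broken strands.

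Estimated depth was 10400000 reads in mock, 10300000 with sgL1ASP #1 and 8700000 with sgL1ASP #3. It is the most frequent depth among those that genes with a single transcript would give if each held 1 read. This peak held 38 of 955 such genes above 0 in mock, 58 of 1001 with sgL1ASP #1 and 46 of 954 with sgL1ASP #3. The FPKM sums lay between 619903 and 673483. The 293T identity was looked at through marker genes. All 5 markers listed for the line (*VIM*, *CDH2*, *NEFL*, *NEFM* and *INA*) were above 0 in every library, with summed FPKM between 870 and 968. Most of this sum was *VIM* (807 to 904), while *NEFM* (5.77 to 6.02) stood near the liver marker *APOA1* (5.39 in mock). All 3 blood markers, the squamous marker *KRT14*, and 2 of 3 fibroblast markers were listed at 0 throughout. The squamous marker *KRT5* reached 0.055, the fibroblast marker *COL1A1* 2.55 and the summed liver markers 5.85 at most. The name of the line was taken from the labels. L1 itself has no entry by name in the gene values, and activation of the ASP was not analysed here.

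None of the 8 genes differed by more than 1.2-fold between any pair of libraries. Among all genes with mean FPKM at least 1, a set that reaches lower FPKM, 14.5% did for sgL1ASP #1 against mock. The share was 15.2% for sgL1ASP #3 against mock and 14.8% between the guides. Levels and changes are those of the deposited values unless equal sums are named. The levels of the 8 genes stood in the same order in all 3 libraries, and the order was *NCL*, *PABPC1*, *PCNA*, *PARP1*, *PABPC4*, *IPO7*, *UPF1* and *TOP1*. *NCL* was about 13 times as high as *TOP1* (ratio 12.6 in mock, 13.2 with sgL1ASP #1 and 12.8 with sgL1ASP #3). Of the 8 genes, 6 ranked among the 2000 highest entries in every library, and *UPF1* and *TOP1* ranked between 2258 and 2724. The ranges of neighbours in the order did not overlap over the 3 libraries. The closest neighbours were *NCL* and *PABPC1*, with a ratio of 1.06 with sgL1ASP #3, and *UPF1* and *TOP1*, with a ratio of 1.08 in mock. With a single library per condition no replicate spread is known for these gaps.

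**Figure D1:**
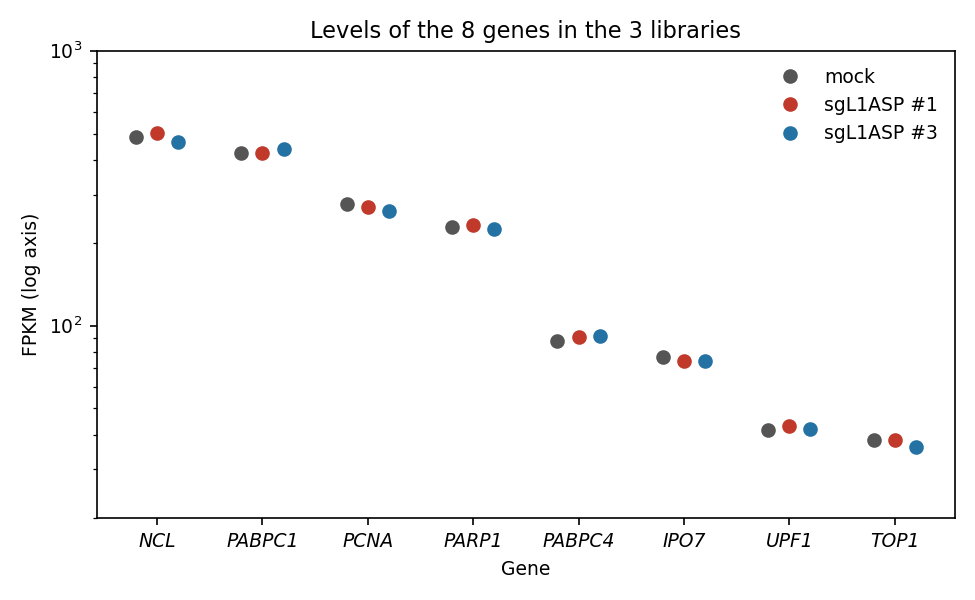
FPKM (log axis) of each of the 8 genes, ordered by mean level, with 1 point per library (grey mock, red sgL1ASP #1, blue sgL1ASP #3). The 3 points of each gene lie close together, while the genes span from 36.2 (*TOP1*, sgL1ASP #3) to 504 (*NCL*, sgL1ASP #1).

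The poly(A)-binding proteins act on the cytoplasmic side, where the L1 particle forms on L1 RNA and its poly(A) tail. *PABPC1* had FPKM 424 in mock, 423 with sgL1ASP #1 and 439 with sgL1ASP #3. The mock and sgL1ASP #1 libraries were thus nearly equal (log2 change -0.0034), and sgL1ASP #3 was 3.38% above mock in the deposited values, a sign that turns when the libraries are scaled to equal FPKM sums. *PABPC4*, the second cytoplasmic poly(A)-binding protein of this list, had FPKM 87.7, 90.9 and 91.9 in the same libraries. It was higher than mock with both guides, by 3.68% (sgL1ASP #1) and 4.80% (sgL1ASP #3) in the deposited values and by neither at equal sums. *PABPC1* exceeded *PABPC4* by 4.84 times in mock, 4.66 times with sgL1ASP #1 and 4.77 times with sgL1ASP #3, so the balance between these paralogs was close to the same in each library.

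*UPF1* had FPKM 41.6 in mock, 43.3 with sgL1ASP #1 and 42.1 with sgL1ASP #3. Both guides were above mock, by 4.19% and 1.40%, in the deposited values, and below it at equal sums. *NCL* had FPKM 485 in mock, 504 with sgL1ASP #1 and 464 with sgL1ASP #3. It was above mock by 3.83% with sgL1ASP #1 and below it with sgL1ASP #3 (percent difference -4.34), and at equal sums it was below mock with both. The distance between the guides, 8.54% or 0.12 on the log2 scale, was the largest difference between any pair of libraries among the 8 genes in the deposited values, but not at equal sums, where *PCNA* with sgL1ASP #3 against mock (log2 change -0.21) exceeded *NCL* between the guides (0.14).

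On the nuclear side, *IPO7* had FPKM 76.6 in mock, 74.1 with sgL1ASP #1 and 74.4 with sgL1ASP #3. Mock was the highest library, and the libraries of both guides were nearly equal (percent difference -0.349). *PCNA* had FPKM 278 in mock, 271 with sgL1ASP #1 and 261 with sgL1ASP #3, in falling order from mock to sgL1ASP #3. Its log2 change against mock was -0.034 with sgL1ASP #1 and -0.088 with sgL1ASP #3, the lowest value among the 8 genes. *TOP1* had FPKM 38.4, 38.2 and 36.2, with mock and sgL1ASP #1 nearly equal and sgL1ASP #3 lower (log2 change -0.086). *PARP1*, which binds single-strand breaks such as those left by a nick, had FPKM 229, 232 and 226, and its highest library exceeded its lowest by 3.01%.

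In the deposited values, though not at equal sums, 2 of the 8 genes were higher than mock with both guides (*PABPC4* and *UPF1*), 3 were lower with both (*PCNA*, *TOP1* and *IPO7*), and 3 had opposite signs (*PABPC1*, *NCL* and *PARP1*). Among all 12830 genes with mean FPKM at least 1, 33.7% were higher and 33% lower with both guides. Both comparisons use the same mock library. These directions held when the libraries were scaled by the median ratio of expressed genes. This changed the ratios between libraries by factors of only 1.0001 (sgL1ASP #1 over mock) and 0.998 (sgL1ASP #3 over mock). The deposited values already lay close to the median ratio, so it could hardly turn a sign. The directions did not hold with all libraries brought to an equal FPKM sum. There, all 8 genes were lower than mock with both guides, and 7 of the 16 changes against mock had turned their sign. That scaling put the median log2 change over all expressed genes at -0.092 (sgL1ASP #1) and -0.12 (sgL1ASP #3). The median of the 8 genes was then -0.086 with sgL1ASP #1 and -0.15 with sgL1ASP #3.

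**Figure D2:**
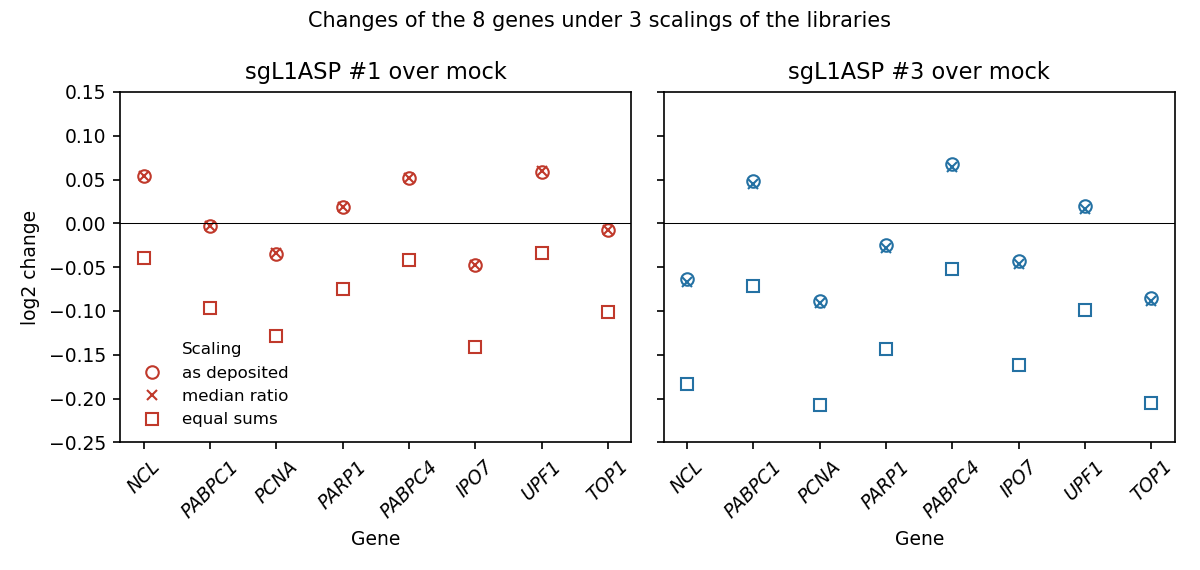
log2 change against mock of each gene (left sgL1ASP #1, right sgL1ASP #3) with the deposited values (circles), after scaling to the median ratio (crosses) and after rescaling to equal sums (squares). Circles and crosses nearly coincide, as the deposited values already lay close to the median ratio. All squares lie below 0, between -0.034 and -0.14 on the left and between -0.052 and -0.21 on the right.

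A gene was counted as changed when its FPKM ratio exceeded 1.5-fold in either direction, the fold used in the study, and a smaller limit of 1.2-fold was used as well. For sgL1ASP #1 against mock, 0 of the 8 genes passed 1.5-fold and 0 passed 1.2-fold, while 3.23% and 14.5% of all expressed genes did. For sgL1ASP #3 against mock, the counts were again 0 and 0, with 3.48% and 15.2% of all genes. Between the guides they were 0 and 0, with 3.34% and 14.8%. With 8 genes and 3.23% to 3.48% of all genes past 1.5-fold, a count of 0 lies near the background. A stepwise rule after the study's methods, read here as sgL1ASP #3 over 1.5-fold above mock and sgL1ASP #1 over 1.5-fold above sgL1ASP #3, was passed by 0 of the 8 genes. Among the 12701 genes with mean FPKM at least 1 and above 0 in all 3 libraries, a filter added here, 9 (0.0709%) passed it.

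The changes were also set beside those of the 2494 genes whose mean FPKM lay in the range of the 8 genes, from 37.6 to 485. For sgL1ASP #1 against mock, the 5th and 95th percentiles of these genes were -0.14 and 0.19 on the log2 scale, and the 8 genes lay between -0.048 and 0.059. For sgL1ASP #3 the percentiles were -0.13 and 0.18, and the 8 genes lay between -0.088 and 0.068. All 8 genes were inside these percentiles in both comparisons. Their median absolute log2 change was 0.041 with sgL1ASP #1 and 0.056 with sgL1ASP #3, against 0.060 for the genes of the same range in each case. Their median signed change was 0.0075 and -0.034, against 0.015 and 0.018.

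**Figure D3:**
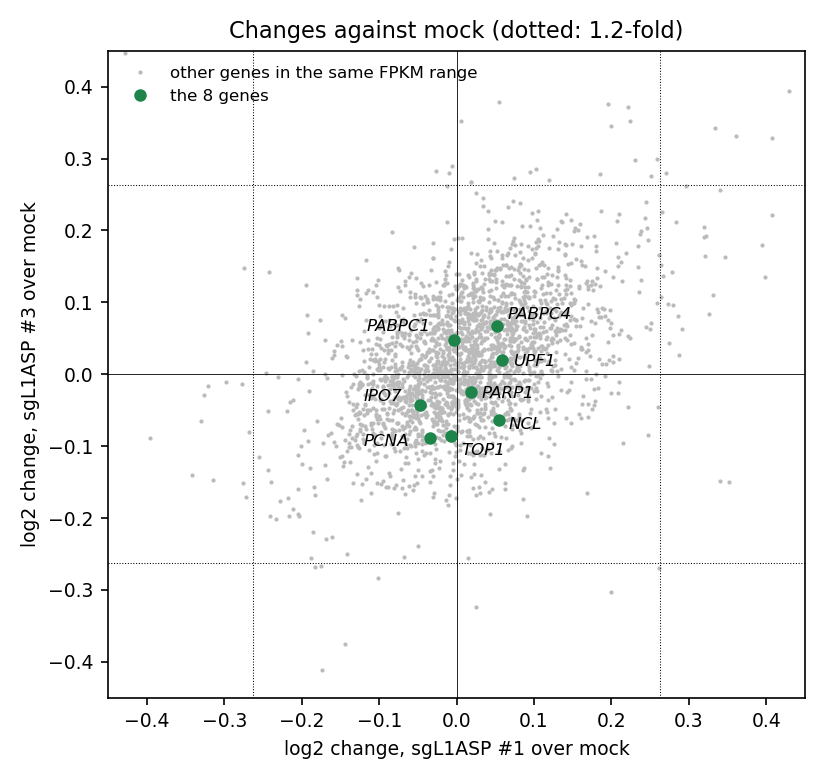
log2 change with sgL1ASP #3 against that with sgL1ASP #1, both over the same mock library, for the 8 genes (green) and 2486 other genes with mean FPKM in the same range (grey, 86 lie outside the axes). All 8 genes lie inside the dotted 1.2-fold limits and within the cloud of grey points.

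Counting error was estimated from the depth and the length of the canonical transcript of GENCODE 44. In mock, about 18800 reads fell on *NCL* and about 1400 on *TOP1*, the least covered of the 8. The standard error that counting alone gives a log2 change ran from 0.015 (*NCL*) to 0.054 (*TOP1*) for sgL1ASP #1 against mock. The change exceeded 2 such errors for 1 gene with sgL1ASP #1 (*NCL*) and for 3 genes with sgL1ASP #3 (*PABPC1*, *PCNA* and *NCL*) in the deposited values. At equal sums the same counts were 5 (*PABPC1*, *PCNA*, *NCL*, *PARP1* and *IPO7*) and 7 (all but *PABPC4*). That scaling moved all genes together, with a median log2 change over all expressed genes of -0.092 (sgL1ASP #1) and -0.12 (sgL1ASP #3). For *NCL* between the guides, 0.12 stood against a counting error of 0.016. The share of all genes past 2 counting errors was not computed, so nothing particular to the 8 genes is read from these counts. These errors cover the sampling of reads and leave out the spread between cultures and library preparations, which was not measured here. The annotation the authors counted on is not given, so transcript lengths and hence read numbers are approximate.

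Each of the 8 genes was located in GRCh37, the sequence of hg19. *PABPC4* lies on chromosome 1 from 40026381 to 40042462 and *PARP1* on the same chromosome from 226547911 to 226595855. *NCL* lies on chromosome 2 from 232318242 to 232348352, *IPO7* on chromosome 11 from 9406199 to 9469674 and *UPF1* on chromosome 19 from 18942768 to 18979039. *PCNA* (5095599 to 5107272) and *TOP1* (39657462 to 39753127) share chromosome 20, and *PABPC1* lies from 101698044 to 101735037 on chromosome 8. Each is a protein-coding gene with several exons, from 6 in the canonical transcript of *PCNA* to 25 in that of *IPO7*.

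Several of these genes have near copies elsewhere in the genome, whose reads could be counted for the gene or lost from it. Places outside the gene that match at least 500 bases of its transcript at 90% identity or more numbered 4 for *PABPC1*, 2 each for *PABPC4*, *TOP1*, *PARP1* and *IPO7*, 1 for *PCNA* and 0 for *UPF1* and *NCL*. How reads with several matches were counted is not given in the sources used here. *PABPC3*, an intronless copy of the *PABPC1* coding sequence known from testis, had FPKM 91.6 in mock, 86.8 with sgL1ASP #1 and 96.0 with sgL1ASP #3. Like *PABPC1*, it was highest with sgL1ASP #3 and lowest with sgL1ASP #1. For *PABPC1*, mock and sgL1ASP #1 were nearly equal (log2 change -0.0034, counting error 0.019), so its lowest library is not resolved. *PABPC1* exceeded *PABPC3* by 4.57 to 4.88 times. Of the 75-base windows of the *PABPC3* transcript, 81 of 3045 (2.66%) also occur unchanged in the *PABPC1* transcript, and reads with mismatches can move between the copies as well. How much of the *PABPC3* value comes from *PABPC1* reads was not tested. *PABPC1L* had FPKM 29.9, 30.8 and 29.9, *PABPC4L* 4.32, 4.48 and 4.57, and the pseudogene *TOP1P1* 4.37, 3.99 and 4.59. The other named copies (*PABPC1L2A*, *PABPC1L2B*, *PABPC1P2*, *PCNAP1* and *TOP1P2*) were listed at 0 in every library.

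Introns of *PABPC4*, *NCL* and *IPO7* carry genes of small nucleolar RNAs, which guide the modification of other RNAs and are cut out of the host transcript. Their FPKM differed far more between the libraries than that of the hosts. *SNORA55*, in an intron of *PABPC4* (GRCh37 chr1:40033046-40033180, minus strand), had FPKM 59.5 in mock and 20.1 with sgL1ASP #1 and is listed at 0 with sgL1ASP #3. *SNORA75*, in an intron of *NCL* (chr2:232320511-232320647, minus strand), had FPKM 39.7, 20.1 and 23.9. *SNORA23*, in an intron of *IPO7* (chr11:9450320-9450501, plus strand), had FPKM 19.1, 4.85 and 11.5. Mock was the highest library for all 3 entries. *SNORD20* and *SNORD82*, both in introns of *NCL*, were listed at 0 throughout. The 3 sequences with signal are given 5′ to 3′ to show how short they are beside a 75-base read. Capitals mark the last letters ACA before the 3′ end, the letters of the box that defines their class. They are followed by 3 bases in SNORA55 and SNORA75 and by 1 base in SNORA23. In SNORA23 the letters ACA overlap themselves there, so the capitals need not mark the box itself.
SNORA55: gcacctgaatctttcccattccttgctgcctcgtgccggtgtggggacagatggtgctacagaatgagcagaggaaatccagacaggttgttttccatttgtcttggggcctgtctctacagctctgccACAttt
SNORA75: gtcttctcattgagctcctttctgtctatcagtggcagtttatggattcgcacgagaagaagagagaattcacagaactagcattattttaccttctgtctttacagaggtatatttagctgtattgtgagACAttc
SNORA23: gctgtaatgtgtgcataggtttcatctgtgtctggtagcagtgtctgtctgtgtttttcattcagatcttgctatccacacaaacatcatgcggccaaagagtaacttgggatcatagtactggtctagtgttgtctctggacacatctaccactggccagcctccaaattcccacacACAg

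These entries are 135, 137 and 182 bases long. The name *SNORA75* stands at 8 annotated places, so its value cannot be tied to the copy in *NCL*. A read was worth 1.013 times as much FPKM with sgL1ASP #1 as in mock and 1.203 times as much with sgL1ASP #3, from the most frequent ratio among genes with FPKM under 0.3. After this correction the values of *SNORA55* stood as 3 to 1 to 0 in mock, sgL1ASP #1 and sgL1ASP #3, those of *SNORA75* as 2 to 1 to 1, and those of *SNORA23* as 4 to 1 to 2, each within 1% of whole numbers. *SNORA55* and *SNORA75* had exactly the same FPKM with sgL1ASP #1, 20.0894, and 5 entries in that library held this value. The ratios are relative, so the number of reads is not known. If the lowest value above 0 of each entry stands for 1 read, no library holds more than 4 reads of any of them, and no difference between the libraries was detectable at this depth. Libraries made from poly(A)+ RNA hold little of such RNAs.

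*PCNA-AS1*, a noncoding RNA gene named as antisense to *PCNA* and placed inside *PCNA* by RefSeq on GRCh38.p14, went the other way. Its FPKM was 21.0 in mock, 44.8 with sgL1ASP #1 and 107 with sgL1ASP #3, a log2 change of 1.09 and 2.34 against mock, or 1.00 and 2.23 at equal sums. *PCNA-AS1* was highest with sgL1ASP #3. *PCNA* itself was lowest there (percent difference -5.93 against mock), and so were *NCL*, *TOP1* and *PARP1*. A link between *PCNA* and its antisense entry was not tested. Corrected for what a read is worth, the antisense values stood as 1 to 2.11 to 4.23, which is not close to small whole numbers. Counting was set to use strand, and how far this kept reads of *PCNA* and of its antisense partner apart was not measured here. Among all genes with mean FPKM at least 1, 3.23% and 3.48% changed more than 1.5-fold against mock with sgL1ASP #1 and #3. The part that misassigned *PCNA* reads have in this value was not tested.

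RefSeq lists 2 starts for *PCNA*, and the 300-base window around the inner start shares 61 bases with *PCNA-AS1*. The 250 bases before this start (GRCh38.p14 chr20:5119959-5120208, minus strand) are given 5′ to 3′ because that window overlaps the antisense entry with the changed value. Most of the printed bases lie outside the antisense entry. Capitals mark the letters CCAAT of the NF-Y box, the letters GGGCGG of the GC box and the core TGACGT of the cyclic AMP response element, each on either strand.
PCNA: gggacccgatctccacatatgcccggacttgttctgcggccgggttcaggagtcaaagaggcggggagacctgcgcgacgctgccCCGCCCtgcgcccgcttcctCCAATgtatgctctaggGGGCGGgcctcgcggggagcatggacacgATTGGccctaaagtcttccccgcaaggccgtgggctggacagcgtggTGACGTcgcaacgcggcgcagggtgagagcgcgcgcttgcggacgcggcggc

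Promoter windows of 250 bases were matched for 6 of the 8 genes (7 windows, with 2 for *PCNA*), all but *PABPC1* and *PABPC4*. The GC box, searched as GGGCGG on both strands, was found in 6 of the 7 windows, and in 42.6% of all 35116 promoters of the same length. It was missing from the window of *IPO7*, which alone held an E-box (CACGTG, in 6.34% of all promoters). CCAAT was found in both *PCNA* windows, *UPF1* and *NCL* (32.0% of all promoters). TGACGT was found in the inner *PCNA* window and in *TOP1* (7.10%), and TATAAA in 0 of the 7 windows (10.7%). The letters of any searched motif do not occur inside another, so motifs can overlap only in part. A match describes the letters only.

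The genes that work beside the 8 proteins were followed in 8 lists with 87 genes, of which 85 had mean FPKM at least 1. In the deposited values, 0 of the 85 passed 1.5-fold in any pair, beside 3.23%, 3.48% and 3.34% of all genes in the 3 pairs. More than 1.2-fold was reached by 1 of the 85 for sgL1ASP #1 against mock, 2 for sgL1ASP #3 against mock and 3 between the guides, beside 14.5%, 15.2% and 14.8% of all genes, and nothing is read from these counts. These were 5 genes in all, named after their values were seen: *PABPN1*, *PAIP1*, *UPF2*, *SMG9* and *PARP4*. *SMG9*, a regulator of the kinase that phosphorylates UPF1, had FPKM 17.3 in mock, 12.9 with sgL1ASP #1 and 15.5 with sgL1ASP #3, and its log2 change of -0.42 with sgL1ASP #1 was the largest of the 85 against mock. *UPF2*, the partner that binds UPF1, had FPKM 13.8, 12.6 and 11.4 (log2 change with sgL1ASP #3 -0.27).

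In the poly(A)-binding list, 7 of 9 genes were expressed, and their median log2 change was 0.049 with sgL1ASP #1 and -0.0027 with sgL1ASP #3. *PAIP2*, an inhibitor of PABPC1, had FPKM 76.3, 78.9 and 80.4, and *PAIP1*, a PABPC1 partner in translation, had 10.9, 13.02 and 9.92. The nuclear *PABPN1* had FPKM 34.9 in mock, 39.0 with sgL1ASP #1 and 31.6 with sgL1ASP #3, and like *PAIP1* it was highest with sgL1ASP #1 and lowest with sgL1ASP #3. In the nonsense-mediated decay list of 11 genes the medians were 0.038 and -0.011, with *SMG5* at FPKM 94.2, 89.8 and 93.8 and *DHX34* at 23.7, 22.3 and 22.7.

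In the list of clamp loading and lagging-strand synthesis (14 genes), the medians were -0.023 with sgL1ASP #1 and 0.029 with sgL1ASP #3. *RNASEH2A*, the catalytic subunit of RNase H2, had FPKM 137, 143 and 147, and the polymerase delta subunit *POLD2* had 90.2, 104 and 105. *POLD2* was higher with both guides in the deposited values, by 0.21 on the log2 scale in each case, and by 0.11 and 0.093 after rescaling to equal sums. Among 7 topoisomerase and related genes the medians were 0.017 and -0.013, with *TOP2A* at FPKM 77.8, 77.1 and 74.4 and the mitochondrial *TOP1MT* at 43.5, 47.2 and 43.1. Among 9 genes of PARP enzymes and strand break repair they were 0.033 and -0.012, with *PARP2* at 83.4, 81.6 and 79.9 and *XRCC1* at 56.8, 59.6 and 56.4. *PARP4*, which passed the 1.2-fold limit with sgL1ASP #3, had FPKM 7.99, 7.62 and 6.44.

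Among 11 nuclear import genes the median log2 change was -0.012 for sgL1ASP #1 and 0.062 for sgL1ASP #3 in the deposited values. *RAN*, the GTPase that sets the direction of transport, had FPKM 346, 367 and 361, and *IPO5* had 98.3, 103 and 105. *IPO7* was below mock with both guides while *IPO5* and *RAN* were above it in the deposited values, all by less than 1.2-fold, and at equal sums *IPO5* and *RAN* were below mock too. Among 11 nucleolar genes the medians were 0.0028 and -0.017. *NPM1*, a histone chaperone of the nucleolus, had FPKM 697, 781 and 694, and *FBL*, the methyltransferase of box C/D particles, had 477, 494 and 494. *NPM1* was highest with sgL1ASP #1 in the deposited values and at equal sums, whereas *NCL* was highest there in the deposited values only. A wider list of 15 proteins known from L1 complexes had medians of -0.038 and 0.023, and its most abundant genes were the chaperones *HSP90AB1* (FPKM 737, 760 and 765) and *HSP90AA1* (281, 280 and 273). The median over all 12830 expressed genes was 0.00085 and 0.0015 in the same comparisons.

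**Figure D4:**
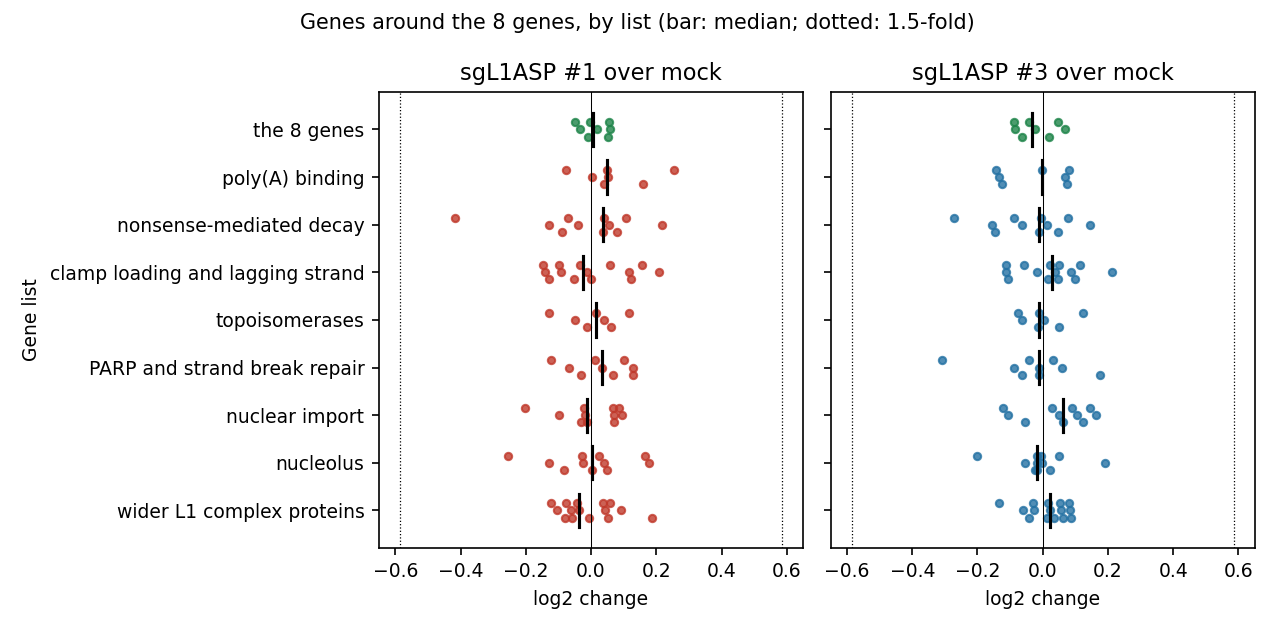
log2 change against mock (left sgL1ASP #1, right sgL1ASP #3) of the 8 genes (green) and of the expressed genes of the 8 lists, 1 point per gene with a black bar at the median. All points lie inside the dotted 1.5-fold limits, and the medians of the lists lie between -0.038 and 0.062.

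Genes with a pattern over the 3 libraries like that of each of the 8 genes were counted. Likeness was measured as the distance between the pairs of log2 changes against mock, among genes within 1.5-fold of the same mean FPKM. Within a distance of 0.05 there were 252 such genes for *UPF1*, 171 for *TOP1*, 169 for *IPO7*, 132 for *PABPC4*, 48 for *PARP1*, 15 for *PABPC1*, 15 for *PCNA* and 3 for *NCL*. The numbers compared differ, from 122 genes for *NCL* to 2155 for *TOP1*. The single nearest genes were *PPP1R7* for *UPF1*, *CAPN1* for *TOP1*, *NAE1* for *IPO7*, *RCC2* for *PABPC4*, *PCBP2* for *PARP1*, *YWHAE* for *PABPC1*, *UBXN1* for *PCNA* and *EIF3K* for *NCL*. *EIF3K*, a translation initiation factor subunit and the nearest to *NCL*, had FPKM 356 in mock, 369 with sgL1ASP #1 and 345 with sgL1ASP #3. The distances of the nearest genes ran from 0.0025 to 0.021, and with 3 libraries they rest on 2 changes per gene.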

How the data were processed

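RNA-seq of 293T cells was re-analysed, with 1 library each for mock, sgL1ASP #1 and sgL1ASP #3, assigned from the labels. The authors used the TruSeq stranded mRNA kit with 75-base single-end reads, mapped the reads to hg19 with TopHat2 2.0.13, Bowtie2 2.2.3 and SAMtools 0.1.19, and deposited 1 FPKM value per gene from Cuffdiff (Cufflinks 2.2.1) in strand-specific mode. The gene annotation and the scaling between libraries are not given in the sources used here.

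The deposited FPKM were used without rescaling. Log2 changes are of log2(FPKM + 0.1), which understates changes of low genes; ratios have no pseudocount, and shares past a fold cover genes with mean FPKM at least 1 and above 0 in both libraries. The genes and lists were chosen with earlier results of these data known. The text names all 8 genes, the 2 highest genes of each list, any list gene past 1.5-fold, entries inside the 8 genes, named copies above FPKM 1 and the nearest gene in pattern. *HMCES* was matched through its older name, C3orf37. *SNORA26* was left out, since RefSeq places the gene of this name elsewhere than *PCNA*.

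Gene positions are from GENCODE 44 lifted to GRCh37, and promoters and antisense placement from RefSeq on GRCh38.p14. Depth was estimated from genes with a single transcript over 1000 bases, taking 200 bases off for the fragment; errors from it cover counting only. Copies were searched with minimap2 2.31. The calls and the depth estimate were tested on simulated data. Python 3.11.15, NumPy 2.4.6, pandas 2.3.3 and matplotlib 3.10.9 were used. Pseudocounts of 0.01, 1 and none, other scalings, filters and folds were tried. No sequence of the encoded proteins was used here.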

Additional observations from a re-analysis of the deposited data

How the results depend on the processing

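Of 181 values recomputed under other settings, 172 moved by less than 1.5-fold (log2 changes) or 1.5 times (counts and shares), among them the log2 changes of the 8 genes under the pseudocounts and scalings tried. For those changes the limit was far wider than the changes themselves, at most 0.12 in size in the deposited values. Changes that turned their sign at equal sums are thus among the 172, and no stability is read from that number. The counts of the 8 genes past 1.5-fold and 1.2-fold were 0 under both other filters and both other scalings. Of these scalings, the median ratio nearly repeats the deposited values. The stepwise rule was passed by 0 of the 8 genes with 1.2-fold steps too. The share of all genes past 1.5-fold moved with the filter on low values. Without a filter it was 11.9% for sgL1ASP #1 against mock, 12% for sgL1ASP #3 against mock and 11.8% between the guides. With FPKM at least 1 in every library it was 2.11%, 2.19% and 2.19%. Without a filter, 1 gene of the lists passed 1.5-fold with sgL1ASP #1, *PABPN1L*, with FPKM 0.433 in mock and 0.175 with sgL1ASP #1. At equal sums the number of the 8 genes whose change exceeded 2 counting errors was 5 with sgL1ASP #1 and 7 with sgL1ASP #3, a comparison added after seeing the data. The median log2 change of all expressed genes was then -0.092 and -0.12, and no share of all genes was computed beside these counts. Rescaling to equal sums turned the sign of 7 of 16 changes against mock, and none of the 8 genes then passed 1.2-fold. No paired analysis was possible because only 1 library was made per condition, and no library could be left out for the same reason.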
